A study of Mus musculus with 9 samples.

Results

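Ptgs2 encodes cyclooxygenase-2, the inducible enzyme that turns arachidonic acid into prostaglandin H2, from which the other prostaglandins and thromboxane are made. Its isoenzyme cyclooxygenase-1, encoded by Ptgs1, carries out the same reaction and is made in many resting cells, platelets among them. In neutrophils, monocytes and macrophages Ptgs2 is an early response gene: bacterial products, interleukin-1 and tumour necrosis factor switch it on within hours, and its messenger RNA is short-lived because AU-rich elements mark it for decay. Myeloid cells that restrain T cells in cancer are known to use its product prostaglandin E2 as one of their mediators.

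Ptgs2 was examined as the single row that carries its symbol (accession NM_011198 in the file) among the 964 rows of the authors' deposited table of significant changes, in a data set of 31648 array rows and 9 samples. CD11b+Gr1+ cells, a surface phenotype that takes in neutrophils, inflammatory monocytes and their precursors, were sorted from spleens and profiled on Affymetrix expression arrays. The 6 tumour-bearing samples each came from 1 mouse of the genotype L2-Cre;p120f/f, in which the L2 promoter drives Cre recombinase in oral and oesophageal squamous epithelium and both copies of p120 catenin (Ctnnd1) are floxed. The 3 control samples were pools, each combining cells of 3 mice without disease. Their genotype was L2-Cre;p120+/f, with the same Cre and 1 floxed copy. Both groups had a mixed C57BL/6x129 background, and the labels record no treatment. Titles and source names gave the groups. Further label fields, on age, limb tissue and genotype, belong to an embryonic study, clash with those titles and were set aside, so the age of the mice is not known. Tumour, genotype and pooling coincide with the group and cannot be told apart.

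The authors' table was built by comparing these 2 groups, and it holds 3.05% of all rows (1.43% as lower). The level of Ptgs2 in the 2 groups is therefore what brought it into the table, and the difference is given as a description, without a test. The other rows of the value table carry no gene name, so every gene given a value here is 1 of the 895 named genes, which the authors had selected for change on the same samples. Ctnnd1, Itgam (CD11b), Ly6g and Ly6c2 are not among the named genes, and the labelled genotype and sort were not checked against them. Named genes of the granulocyte lineage such as Csf3r (11.26 ± 0.14, SD, n = 6, and 12.27 ± 0.15, SD, n = 3, log2 expression in mice and pools) lay far above the array medians of 5.92 to 5.99. In the pools so did markers of other cell types, such as Csf1r of monocytes (11.31 ± 0.06, SD, n = 3) and H2-Aa of dendritic cells (10.61 ± 0.10). These levels are therefore no check of the sort.

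The sequence around the start of the Ptgs2 gene is shown because elements near it are known to take part in its induction, and that of Ptgs1 is shown beside it because the 2 isoenzyme genes differed in opposite directions between the groups. Each window is 300 bases from RefSeq (build GRCm38.p6, plus strand for both), at chr1:150099781-150100080 for Ptgs2 and chr2:36230176-36230475 for Ptgs1, with 250 bases before the annotated start of the gene and 50 from it on, so that the start is base 251, counted from 1 at the 5′ end. Capitals mark the motif matches.
Ptgs2: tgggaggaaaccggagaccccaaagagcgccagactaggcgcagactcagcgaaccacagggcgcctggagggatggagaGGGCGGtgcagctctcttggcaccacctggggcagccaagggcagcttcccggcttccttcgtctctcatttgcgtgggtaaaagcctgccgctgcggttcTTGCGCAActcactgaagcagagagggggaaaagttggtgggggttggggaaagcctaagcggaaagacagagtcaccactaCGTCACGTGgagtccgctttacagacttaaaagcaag
Ptgs1: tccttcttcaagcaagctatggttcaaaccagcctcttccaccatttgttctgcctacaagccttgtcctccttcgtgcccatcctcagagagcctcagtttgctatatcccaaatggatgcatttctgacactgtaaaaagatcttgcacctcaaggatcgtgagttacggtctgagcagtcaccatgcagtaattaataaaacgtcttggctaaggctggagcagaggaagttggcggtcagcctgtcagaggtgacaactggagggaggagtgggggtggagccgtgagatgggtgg

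The words searched on both strands were the TATA box (TATAAA), the E-box (CACGTG), the cyclic AMP response element half-site (TGACG), the core of the C/EBP site (TTGCGCA), the GC box (GGGCGG) and, by name, the NF-kappaB consensus. In the Ptgs2 window the C/EBP core was found at bases 182 to 188 and, on the opposite strand, at bases 183 to 189, since the site is a palindrome. The E-box lay at bases 267 to 272, and the half-site, on the opposite strand, at bases 264 to 268. These matches overlap, and both lie after the start that RefSeq annotates. Whether transcription begins at that base in these cells was not examined, so the matches are not shown to be transcribed sequence. The GC box lay at bases 81 to 86. C/EBP proteins, CREB and AP-1 factors, and USF proteins are known to bind such elements of the mouse Ptgs2 promoter. Of 32851 such windows of mouse genes, 2.02% held the C/EBP core, 7.15% the E-box, 20.8% the half-site and 35.7% the GC box. The C/EBP core, E-box and half-site occurred together in 33 windows (0.10%), a combination chosen after the Ptgs2 matches were seen. The Ptgs1 window held 0 of the 6 motifs. The TATA box (13.6% of windows) and the NF-kappaB consensus (8.46%) were not found in either window, which says only that these letters are not within it. RefSeq places the start of the long noncoding RNA gene Ptgs2os 157 bases from that of Ptgs2, on the other strand, and the promoter windows of the 2 genes share 256 bases.

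Ptgs2 was far lower in cells of the tumour-bearing mice than in the control pools. The log2 expression was 5.78 in mouse 1, 6.12 in mouse 2, 5.79 in mouse 3, 5.70 in mouse 4, 6.12 in mouse 5 and 5.36 in mouse 6. In the control pools it was 9.69, 10.08 and 9.89. All 6 mice lay below all 3 pools, and the gap of 3.58 between the highest mouse and the lowest pool was wider than the range within either group (0.75 among the mice and 0.38 among the pools). Each pool averages over 3 mice, so the range among the pools does not show how single control mice vary. Of all rows, 9.39% had all 6 mice below all 3 pools. The group means were 5.81 ± 0.28 (SD, n = 6 mice) and 9.89 ± 0.19 (SD, n = 3 pools), a difference of -4.07 ± 0.17 (SE of the limma fit, 95% interval -4.47 to -3.68) on the log2 scale. On the linear scale Ptgs2 was 16.8-fold lower, with an interval of 12.8-fold to 22.1-fold. A fall of at least 2-fold past the limma threshold was found in 1.77% of all rows, and nothing is read from this for Ptgs2, which the same contrast had chosen. Single mice lay between 13.6-fold (mice 2 and 5) and 23.0-fold (mouse 6) below the control mean. In such bulk samples, fewer cells that express the gene and less RNA per cell cannot be told apart.

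**Figure D1:**
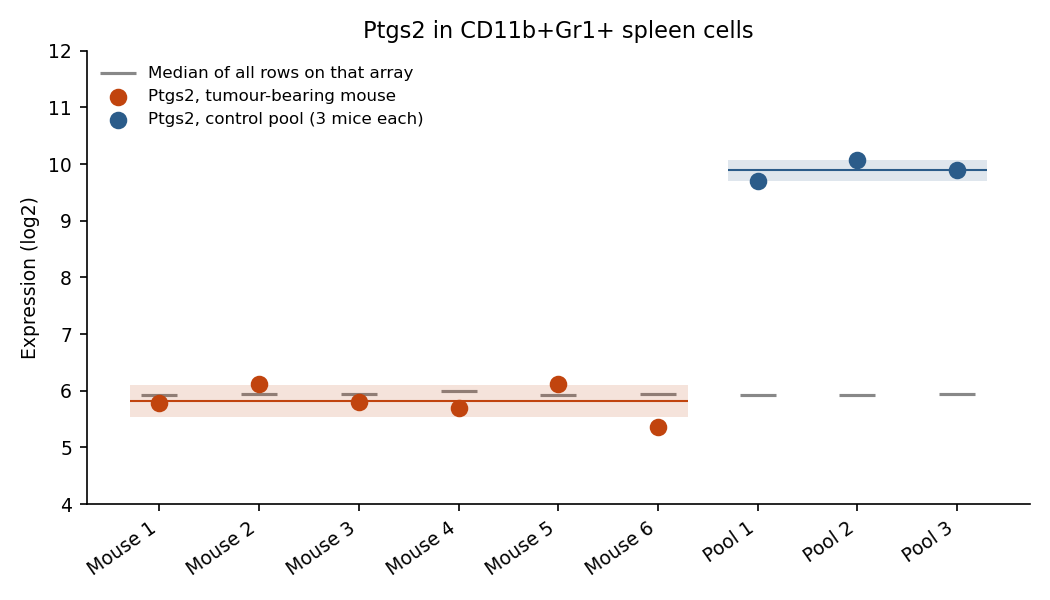
Log2 expression of Ptgs2 in each of the 6 tumour-bearing mice and 3 control pools (points), with the group mean (line), 1 SD to either side (band) and the median of all 31648 rows on each array (grey bars). The mice lie between 5.36 and 6.12, around the array medians, and the pools between 9.69 and 10.08.

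The values of the mice were close to the middle of the array. In 4 of the 6 mice Ptgs2 lay below the median of its own array, by 0.14 to 0.57, while in mice 2 and 5 it lay 0.18 and 0.20 above. In the control pools it stood 3.78 to 4.15 above the array median. The arrays came without a background call, so whether Ptgs2 was detected at all in the tumour-bearing mice is not known, and the size of the difference is uncertain to that extent. When 16 was added on the linear scale, which damps dim values, the difference was -3.73.

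The order of the levels, from the lowest, was mouse 6, mouse 4, mouse 1, mouse 3, then mice 2 and 5, and above them pools 1, 3 and 2. Mice 1 and 3 differed by less than the SD of the group, as did mouse 4 from both. The lowest and the highest mouse were 1.69-fold apart. Mice 2 and 5 had the same value to 5 decimals. Such ties are common in these normalized values: mice 2 and 5 shared 9.78% of all rows exactly, and pairs of arrays shared between 5.17% and 12.2%. The SD of Ptgs2 among the mice (0.28) was above that of 86.3% of the 7112 rows whose mean in the mice lay within 0.5 of it, where the median SD was 0.10. Among the pools, its SD of 0.19 was above that of 84.5% of 896 rows of like level.

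Among all 31648 rows, only 3 had a larger fall, and all 3 are in the authors' table: Tas2r135 (-4.46 ± 0.32, SE) and Tas2r143 (-4.30 ± 0.34), which encode bitter taste receptors, and the long noncoding RNA gene 2010310C07Rik (-4.16 ± 0.32). Just below Ptgs2 stood a predicted gene listed only by a number (-3.57 ± 0.13) and H2-Aa (-3.53 ± 0.20), an MHC class II chain. The order among these rows was not tested. The rows of the authors' table that fell, 451 in number, had a median difference of -1.40, and all 31648 rows a median of 0.02. The smallest absolute difference in that table was 1.00.

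Of 70 genes of prostanoid synthesis, prostanoid receptors and breakdown, arachidonate release and the lipoxygenase branch, 5 had a named row. They split by direction, with Ptgs2 and Pla2g7 lower and Ptgs1, Ptgr1 and Ggt1 higher. Over all rows, limma with Benjamini-Hochberg adjustment called 23.2% changed (14.3% higher and 8.83% lower), and in 24.8% of rows the 6 mice and the 3 pools did not overlap. Since the authors had chosen the 5 genes for change on these samples, that all 5 passed and separated the groups is not independent evidence.

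Ptgs1, the other cyclooxygenase, changed in the direction opposite to Ptgs2. Its log2 expression ranged from 10.22 to 10.63 in the mice, with a median of 10.44, and was 9.15, 8.96 and 9.61 in the pools. All 6 mice lay above all 3 pools, and pool 3 stood above the other pools. Ptgs1 rose 2.25-fold, by 1.17 ± 0.14 (SE) on the log2 scale (limma adjusted p = 0.000477). In the unequal-variance test this call was lost (adjusted p = 0.106). Ptgs1 is also a marker of platelets. The only other named gene on a list of 12 platelet and megakaryocyte markers was Thbs1, which was lower (-1.21 ± 0.18, SE). Thbs1 is also on the list of genes that respond to cyclic AMP. Platelet-defining markers such as Pf4 and Ppbp have no named row, and the part of platelets in the level of Ptgs1 was not tested.

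Ptgr1 encodes an enzyme that reduces and so inactivates prostaglandin metabolites and leukotriene B4. It ranged from 8.13 to 8.55 in the mice, with a median of 8.23, and was 6.82, 6.30 and 6.83 in the pools. The groups did not overlap, and Ptgr1 was 3.12-fold higher in the mice (1.64 ± 0.14, SE, log2; limma adjusted p = 8.28e-05). It was the only named gene of 15 for prostanoid receptors, transport and breakdown, and the prostaglandin E2 receptor genes Ptger2 and Ptger4 have no named row.

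Ggt1, the gamma-glutamyl transferase that can convert leukotriene C4 to D4 and also breaks down extracellular glutathione, showed the largest rise of the 5. It lay between 9.02 and 9.48 in the mice, with a median of 9.17, and at 7.11, 7.23 and 7.08 in the pools. This was a 4.10-fold rise (2.04 ± 0.10, SE, log2; limma adjusted p = 1.08e-05), with all 6 mice above all 3 pools. It was the only named gene of 19 on the lipoxygenase list, and Alox5 and Alox5ap have no named row.

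Pla2g7 encodes a secreted phospholipase that inactivates platelet-activating factor. Its log2 expression was 9.57 to 9.90 in the mice, with a median of 9.75, and 10.98, 11.07 and 10.90 in the pools. All mice lay below all pools, a fall of 2.38-fold (-1.25 ± 0.08, SE, log2; limma adjusted p = 2.28e-05). Pla2g4a, the cytosolic phospholipase that releases arachidonic acid for both cyclooxygenases and the nearest protein-coding neighbour before Ptgs2 on its chromosome, has no named row. None of the 3 annotated genes on either side of Ptgs2 has one, among them the noncoding RNA genes Ptgs2os and Ptgs2os2.

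**Figure D2:**
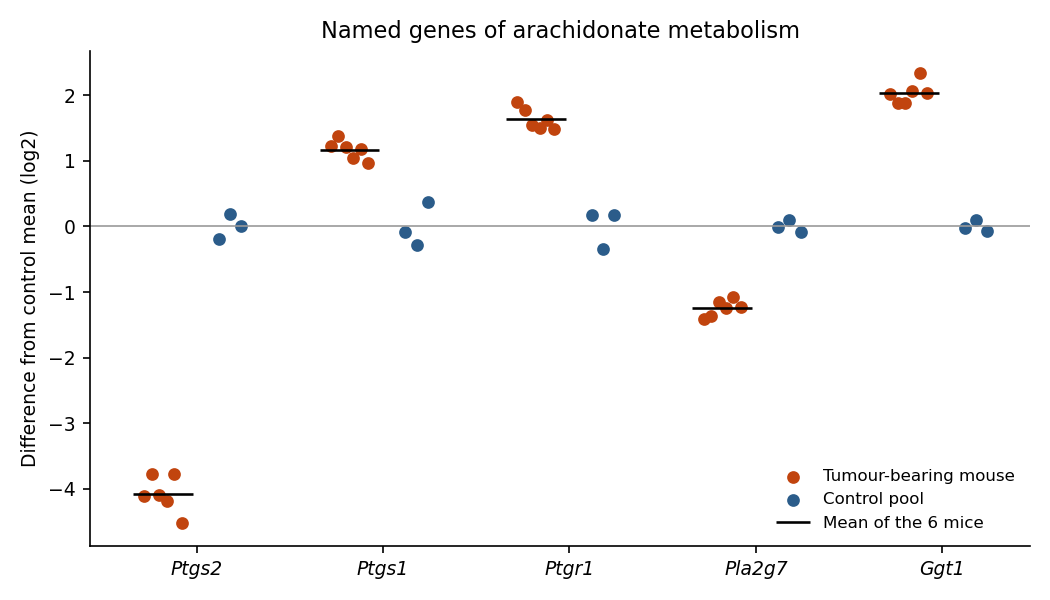
Difference of each tumour-bearing mouse (orange) and each control pool (blue) from the mean of the 3 pools, on the log2 scale, for the 5 named genes of arachidonate metabolism, with the mean of the 6 mice as a black line. Ptgs2 lies near -4.07 and Pla2g7 near -1.25, while Ptgs1, Ptgr1 and Ggt1 lie between 1.17 and 2.04.

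Named genes of the signals that induce Ptgs2 (inducers, their receptors and sensors, and an antagonist) were lower as well. Of 30 such genes 8 were named and all 8 fell, where 8.83% of all rows were called lower. Their log2 differences ran from -2.73 to -1.01 with a median of -1.44, against 0.02 over all rows and 1.03 over the authors' table, whose 964 rows split into 513 higher and 451 lower. Since that table holds only changes of at least 2-fold, a median far from that of all rows was fixed by the selection. Nlrp3, the sensor of the inflammasome that matures interleukin-1 beta, fell 6.65-fold, from 10.74, 10.97 and 10.57 in the pools to between 7.74 and 8.37 in the mice (median 7.95). The mice lay well below the pools. Il1b, which encodes interleukin-1 beta, an inducer of Ptgs2, fell 5.71-fold. It was 12.92, 13.29 and 13.02 in the pools and 9.62 to 11.13 in the mice (median 10.70), so that its spread among mice (SD 0.55) was wider than that of Ptgs2.

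Nod2 (a sensor of bacterial cell wall, -1.48 ± 0.10, SE), Il1rap (the accessory chain of the interleukin-1 receptor, -1.47 ± 0.10), Tnfrsf1b (a receptor of tumour necrosis factor, -1.41 ± 0.09) and Tlr9 (a sensor of unmethylated DNA, -1.37 ± 0.14) fell by similar amounts. The limma adjusted p of the 8 genes was at most 0.00053. The other 2 of the 8, named here after their values were seen, were Il1rn (-1.23 ± 0.12, SE), which encodes the antagonist of the interleukin-1 receptor and so opposes an inducer, and Tlr7 (-1.01 ± 0.11), a sensor of single-stranded RNA. Tlr9 and Tlr7 lost their calls in the unequal-variance test (adjusted p = 0.0648 and 0.0567). Tnf, Tlr4, Tlr2, Myd88 and Il6 have no named row. As for every list here, the members had been selected by the authors for change, so the counts are not independent evidence of a direction.

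Of 36 transcription factors of the Ptgs2 promoter and their inhibitors, 4 were named, with a median difference of -1.31. The 3 members of AP-1 fell, with differences of -1.58 ± 0.13 (SE) for Fos, -1.40 ± 0.11 for Junb and -1.22 ± 0.10 for Jund. Fos stood at 10.09, 10.70 and 10.24 in the pools and at 8.62 to 8.88 in the mice (median 8.77), without overlap. Cebpe, a C/EBP factor of granulocyte precursors, rose by 1.20 ± 0.07 (SE), from 9.84 to 10.10 in the pools to 11.13 to 11.34 in the mice. Cebpb, Cebpd, Creb1, Nfkb1 and Rela have no named row. Fos, Junb and Jund lost their calls in the unequal-variance test (adjusted p = 0.0711, 0.0719 and 0.0681).

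Genes that restrain the same signals were lower too. Of 22 kinases, phosphatases and inhibitors of the inducing pathways 4 were named. All 4 fell (median -1.20), where 8.83% of all rows were called lower. They were Dusp16 (-1.28 ± 0.15, SE), Dusp5 (-1.23 ± 0.10) and Dusp1 (-1.11 ± 0.10), phosphatases that switch off MAP kinases, and Tnfaip3 (-1.17 ± 0.04), which encodes A20, an inhibitor of NF-kappaB signalling. Tnfaip3 was tight in both groups, at 8.01, 8.01 and 8.08 in the pools and 6.77 to 6.92 in the mice. Dusp1 remained among the brighter values in both groups, at 13.16 to 13.27 in the pools and 11.85 to 12.35 in the mice.

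The named factors of messenger RNA decay moved the same way as Ptgs2, whose own message is short-lived. Of 16 genes of messenger RNA decay and stability 3 were named and all fell (median -1.10), where 8.83% of all rows were called lower. Zfp36 (tristetraprolin) averaged 11.70 ± 0.28 (SD, n = 3) in the pools, the lowest at 11.44, and lay at 10.53 to 10.67 in the mice, a fall of 2.15-fold (-1.10 ± 0.11, SE). Zc3h12a, which encodes the endonuclease Regnase-1 (-1.10 ± 0.09, SE), and Zfp36l2, a relative of tristetraprolin (-1.06 ± 0.05), fell by like amounts. In the unequal-variance test Zfp36 lost its call (adjusted p = 0.109). The gene for the stabilising factor HuR, Elavl1, has no named row.

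Other genes induced by the same stimuli did not all go with Ptgs2. Of 30 co-induced inflammatory genes 5 were named (median -1.90), of which Il1b, Csf1 (macrophage colony-stimulating factor, -2.23 ± 0.12, SE), Nr4a1 (an early response nuclear receptor, -1.90 ± 0.11) and Icam1 (an adhesion molecule, -1.13 ± 0.08) fell. Nos2, the inducible nitric oxide synthase, rose 2.87-fold (1.52 ± 0.16, SE; limma adjusted p = 0.000267). Nos2 was 5.87, 5.87 and 5.84 in the pools, just under the array medians, and 7.02 to 7.92 in the mice. Its groups did not overlap, in the opposite sense to Ptgs2.

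Of 20 genes that respond to prostaglandin E2 and cyclic AMP 4 were named. All 4 fell (median -1.22), where 8.83% of all rows were called lower. Beside Nr4a1 and Dusp1 they were Rgs2, a regulator of G protein signalling (-1.22 ± 0.06, SE), and Thbs1, which encodes thrombospondin 1 (-1.21 ± 0.18). Rgs2 was 11.04, 11.18 and 11.06 in the pools and 9.74 to 9.97 in the mice. Thbs1 varied more in the pools, at 8.22, 7.69 and 8.36, against 6.49 to 7.15 in the mice. Its call was lost in the unequal-variance test (adjusted p = 0.0841) and with the replicate number as a block (adjusted p = 0.0545).

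Of 22 genes by which suppressive myeloid cells act on T cells, 6 were named (median -1.83), and Ptgs2 had the lowest value of their differences. Cd274, the checkpoint ligand PD-L1, was 8.87-fold lower, at 9.26, 9.48 and 9.74 in the pools and 6.21 to 6.56 in the mice. Cd244a, a receptor of the SLAM family, fell 3.67-fold, Slc7a11, a cystine transporter, 3.46-fold and Arg2, the mitochondrial arginase, 2.49-fold. Nos2 was the only one of the 6 that rose. Arg1, Il10 and Tgfb1 have no named row.

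**Figure D3:**
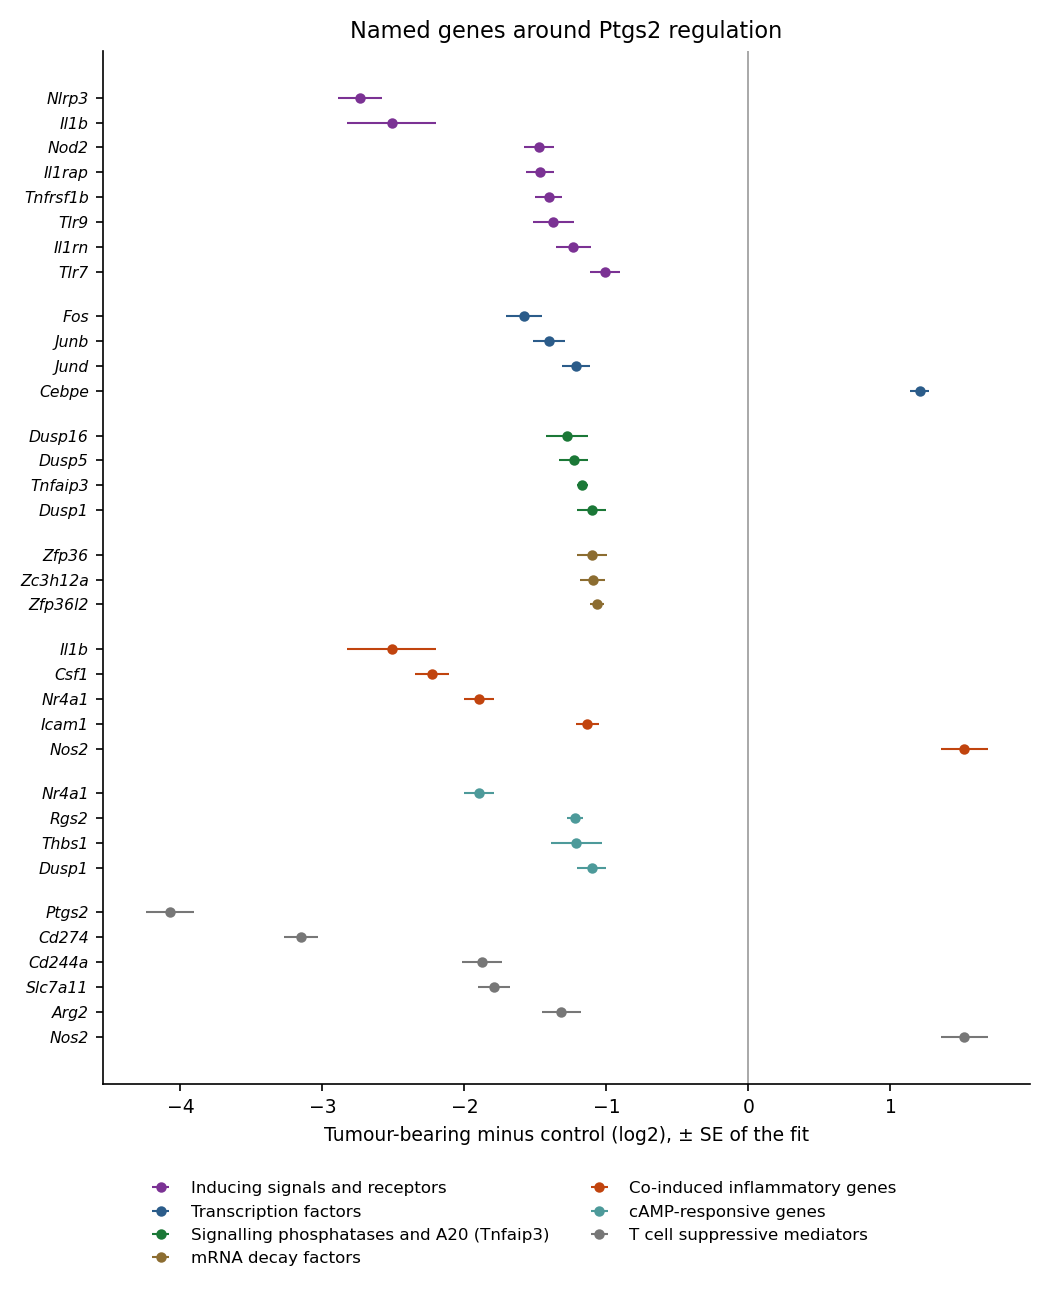
Differences between tumour-bearing mice and control pools on the log2 scale, with the SE of the limma fit, for the named genes of 7 lists around Ptgs2; a gene on more than 1 list is drawn on each. All lie below 0 except Cebpe at 1.20 and Nos2 at 1.52, and Ptgs2 at -4.07 is the lowest.

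Over all 11 pathway lists, 34 of 224 distinct genes were named. Of the 33 other than Ptgs2, 28 were lower and 5 higher, with a median difference of -1.23, against 0.02 over all rows and 1.03 over the authors' table. The lists were made with earlier results of these data known and their named genes had been selected for change, so these counts describe the named genes only.

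Named markers of cell types and states differed between the groups in both directions. Over all rows 14.3% were called higher and 8.83% lower. The named markers had been selected by the authors for change, so their counts are not independent evidence. Of 20 mature neutrophil markers 5 were named and all were lower, and their mean level ranged from 8.94 to 9.83 over the mice and from 11.39 to 11.61 over the pools. Of 15 neutrophil precursor markers 8 were named and all were higher, with a mean of 10.86 to 11.45 in the mice and at most 8.50 in the pools. Ctsg and Mpo, granule proteins of these precursors, were 21.3-fold and 16.3-fold higher. The 5 named of 18 markers of monocytes and macrophages were lower (8.54 to 9.05 against 10.44 to 10.51). So were the 5 named of 14 dendritic cell markers (6.42 to 7.03 against 9.28 to 9.65). Also lower were the 7 named of 17 genes that respond to handling of cells (9.27 to 9.35 against 10.56 to 10.98). These lists share members with the pathway lists above: Nr4a1, Fos, Junb, Dusp1 and Zfp36 of the handling genes, Il1b of the mature neutrophil markers and Cebpe of the precursor markers. Nr4a1 is also on the monocyte list. The lists are therefore not separate observations.

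Single named markers stood for other cell types. Cd22, of 12 B cell markers, was lower (-2.20 ± 0.11, SE), and Ms4a2 of 10 basophil, mast cell and eosinophil markers (1.46 ± 0.15) and Tfrc of 10 erythroid markers (1.21 ± 0.23) were higher. The platelet list held Ptgs1 and Thbs1 (8.48 to 8.81 against 8.33 to 8.99 for their mean). Of 12 T and natural killer cell markers 0 were named. The part of these cell types, and of handling, in the level of Ptgs2 was not tested.

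The 10 named genes nearest to Ptgs2 in profile were found by the root mean square difference between 2 rows over the 9 samples. Each row was centred on its own mean, so that genes with a change of similar size come first. Spread was not matched: the SD among the mice, 0.28 for Ptgs2, ran from 0.13 to 0.61 over the 10 genes. All 10 were lower in the tumour-bearing mice. The nearest was the predicted gene listed by a number (0.32 log2 units), followed by Tas2r135 (0.42), 2010310C07Rik (0.43), Tas2r143 (0.45) and Cd101 (0.45), an inhibitory receptor of mature neutrophils. H2-Aa (0.48), Clec4n (0.50), which encodes the fungal receptor dectin-2, Cd274 (0.51), Tas2r126 (0.53) and the noncoding RNA gene 5430425K12Rik (0.54) completed the set. The median over all rows was 1.94, and 0 unnamed rows lay nearer to Ptgs2 than the tenth gene. A row unchanged between the groups lies far from Ptgs2 by construction, and a row this near must have fallen strongly. Neither figure therefore shows that the 10 genes are specially close.

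The 3 taste receptor genes and 2010310C07Rik are 4 neighbouring genes on chromosome 6 in the RefSeq annotation. Among the mice all 4 were lowest in mouse 4 and highest in mouse 5. Ptgs2 was lowest in mouse 6, next lowest in mouse 4 and highest in mice 2 and 5, which tied. With Pearson's correlation over the 9 samples as the measure, which ignores the size of the change, 2 of these 10 genes (the predicted gene and Tas2r126) were among the 10 nearest. After quantile normalization all 10 remained. The contrast that chose these genes also sets their likeness, which is therefore a description.

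**Figure D4:**
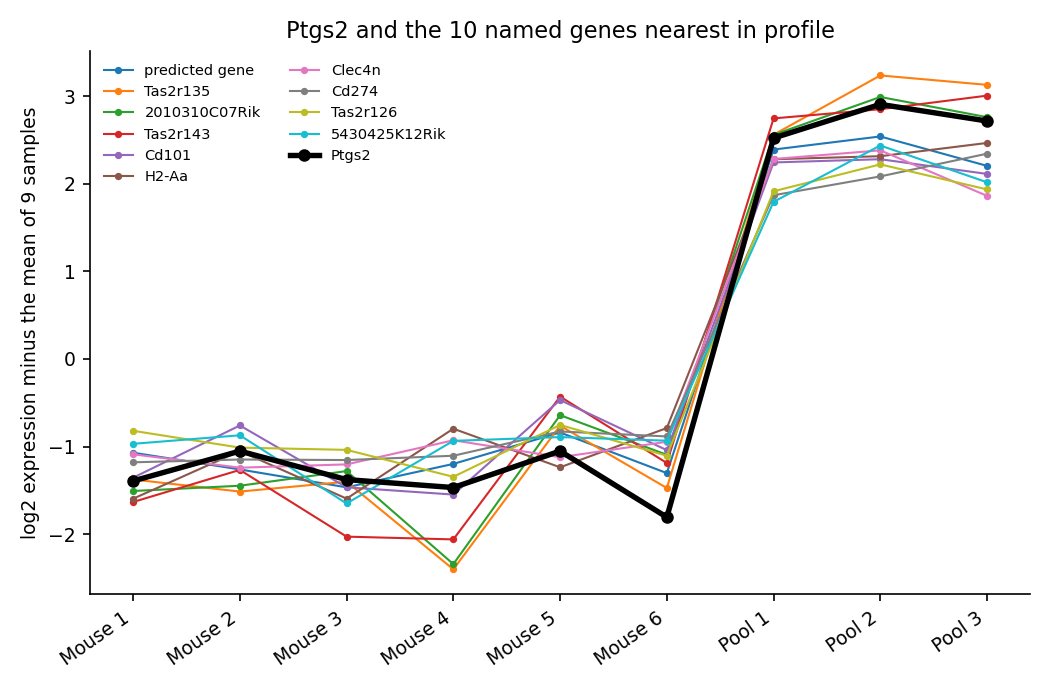
Log2 expression of Ptgs2 (black) and of the 10 named genes nearest to it in profile, each minus its own mean over the 9 samples; lines only join the values of a gene. All 11 genes are lower in the 6 mice than in the 3 pools, and within the mice their orders differ.

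Variation among the tumour-bearing mice is separate from the contrast that chose the gene, and Ptgs2 was set against 10 genes there. The relation was computed over 6 mice with exact permutation of all 720 orderings, two-sided, and adjusted by Benjamini-Hochberg over the 10 genes. None of the 10 passed, by Pearson's r or Spearman's rho (lowest adjusted p = 0.319), and 1 had an unadjusted exact p under 0.05. With Mpo, the myeloperoxidase gene of neutrophil precursors, r was 0.81 (exact p = 0.0361, adjusted 0.319) and rho 0.67 (exact p = 0.161, adjusted 0.6). Without mice 2 and 6, farthest from the median of Mpo, r was 0.10 over the other 4 mice, whose range of Mpo is narrower, and the relation did not hold without those 2. With Nr4a1, r was -0.82 (exact p = 0.0639, adjusted 0.319) and rho -0.61 (exact p = 0.211, adjusted 0.6), and r was -0.27 without the same mice.

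For the other 8 genes r lay between -0.65 (Csf1r, the receptor of macrophage colony-stimulating factor) and 0.55 (Cd101), with exact p from 0.167 to 1, and rho between -0.52 and 0.58 (exact p from 0.244 to 1). Il1b, the inducer of Ptgs2, had an r of 0.16 (exact p = 0.775, adjusted 0.985) and a rho of 0.06 (exact p = 0.933, adjusted 1). Il1b was lowest in mouse 1 and Ptgs2 in mouse 6. Leaving out the 2 mice farthest from the median of the other gene turned the sign of r in 4 of the 10 relations. With 6 mice, relations of moderate strength could not be resolved. Ptgs2 also lay near the array medians in these mice, and whether it was detected there is not known. Its differences among the mice may therefore not reflect its RNA level.

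**Figure D5:**
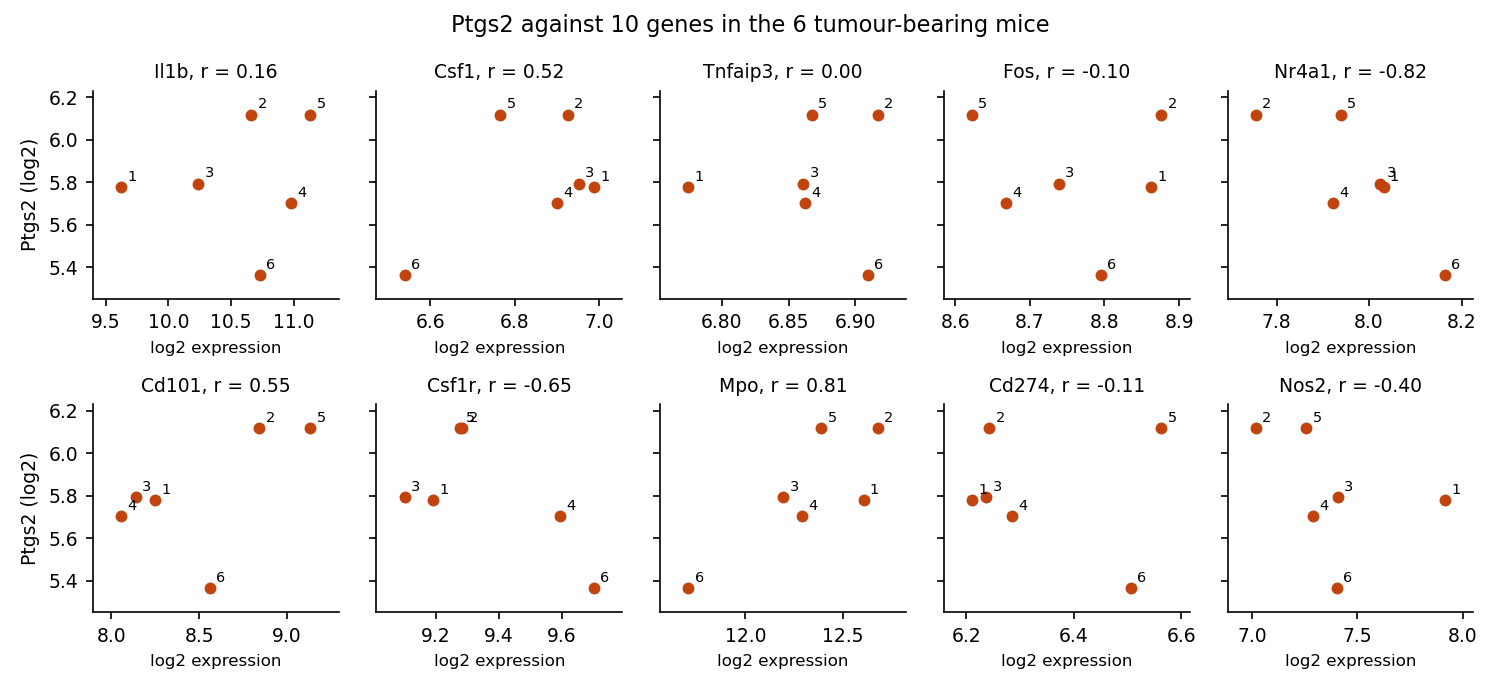
Log2 expression of Ptgs2 (vertical axis) against that of 10 other genes (horizontal axes) in the 6 tumour-bearing mice, numbered by mouse, with Pearson's r. The relations with the largest r in size, with Mpo (0.81) and Nr4a1 (-0.82), had r of 0.10 and -0.27 without mice 2 and 6.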

How the data were processed

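CD11b+Gr1+ spleen cells of 6 single mice and 3 control pools were profiled on Affymetrix arrays. The deposited values are log2 expression, normalized across arrays by the authors. Per the submitters' processing notes, the tools were Affymetrix Power Tools, RMA and PLIER, with build mm9; which of them produced the deposited numbers is not given in the sources used here. Log2 was taken as the scale from the range of the values (1.95 to 13.95). Per the series design, the authors' table was selected at p under 0.001, from 10000 permutations, with a change of at least 2-fold. Its 964 rows matched the value table on all 9 values. RefSeq gave current names to 717 rows by accession, 114 by symbol and 52 by synonym, and 81 kept theirs. Of several rows of a gene, the one of highest mean was used.

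All 31648 rows were fitted with limma 3.58.1 in R 4.3.3 (lmFit, eBayes, two-sided), with Benjamini-Hochberg adjustment and a threshold of 0.05, and the fit was tested on simulated data. The limma p-values set each difference against the spread within groups, taken as equal for single mice and pools. Their precision is limited by how many arrays there are. Each pool averages over 3 mice, so p-values and intervals do not reflect how single control mice vary. Values are given for Ptgs2, all named genes of arachidonate metabolism, up to 6 genes of each other list by absolute difference, the 10 nearest in profile and the 10 set against Ptgs2 among mice. The gene and the lists were chosen with earlier results of these data known. Results were recomputed after centring arrays on their medians, after quantile normalization, without dim rows, with 16 added on the linear scale, with the methods' t-test, an unequal-variance (Welch) test or a trended robust fit, with the replicate number as a block and without each sample. The deviations of same-numbered samples correlated at 0.09, 0.01 and 0.02, too low to treat the numbers as pairs.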

Additional observations from a re-analysis of the deposited data

Results flagged for a closer look

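In 2 of the 45 genes examined, tumour-bearing mouse 3 stood apart from the other 5 mice, its gap to the nearest of them being a large share of the group's whole range; chance gives about 2.25 such genes. The noncoding RNA gene 5430425K12Rik, among the 10 nearest to Ptgs2 in profile, was 4.85 in mouse 3 and 5.53 to 5.63 in the other mice, a gap of 0.875 of the range. The granulocyte transcription factor gene Cebpe was 11.34 in mouse 3 and 11.13 to 11.20 in the others, a gap of 0.650 of the range. In both genes all 6 mice stayed on the same side of the 3 pools. Ptgs2 itself had no such mouse.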

How the results depend on the processing

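The Ptgs2 difference stayed between -4.17 and -3.98 when each sample was left out in turn, and between -4.08 and -3.73 over the other 8 alternatives. The value of -3.73 came from the pseudocount of 16, which by its construction damps dim values. The replicate block, fitted on 3 mice and 3 pools, gave -3.99. Changed rows, 7333 in the reported fit, numbered 3800 in the Welch test, where the spread of 3 pools is estimated alone, 4289 with the replicate block, where only 3 mice and 3 pools enter and a block term is added (which of these lowered the count was not tested), and 6201 to 7113 without 1 sample. Of the 34 named pathway genes, the Welch test passed 26, the block 33 and each further alternative 34. Over 44 genes (the other pathway genes, those nearest in profile and those set against Ptgs2 among mice), calls and directions held in 739 of 748 recomputed values. The 9 exceptions were lost calls, 8 in the Welch test and 1 with the block, and 0 directions reversed. Without dim rows, in both t-tests and in the trended robust fit, the difference is computed unchanged. Directions could not reverse there, nor could the Ptgs2 difference move. The genes had also been selected for a change of at least 2-fold on these samples, which makes a reversal unlikely elsewhere. When likeness to Ptgs2 was measured by Pearson's correlation, which by construction ignores the size of a change, 2 of the 10 nearest genes were shared. No background call was used, so a dim row may be an undetected one.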
